A study of Mus musculus with 12 samples.

Results

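The immediate-early activity genes are the 10 genes Fos, Fosb, Junb, Egr1, Egr2, Egr4, Arc, Npas4, Nr4a1 and Dusp1, taken by symbol from a table of 32494 genes measured by RNA sequencing of mouse hypothalamus. All 10 symbols were found. The tissue came from 12 male mice that all carried floxed Smc3, all received tamoxifen and were sampled 5 weeks later, with an age of 8 weeks given without the step it refers to. The 7 mice called WT lacked the Camk2a-cre/ERT2 transgene, so they also carried the floxed alleles and were also treated. The 5 mice called cKO carried it. Its recombinase is made from the Camk2a promoter, which is active mainly in forebrain excitatory neurons, and is switched on by tamoxifen, and cells in which that promoter is silent make none. Each library is named here by its group and the mouse number in its title. Every title, of WT and cKO libraries alike, also holds the word control, whose meaning is not given in the sources used here.

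Immediate-early genes are transcribed within minutes of a stimulus, without new protein synthesis, and their messengers are short-lived. In neurons calcium entry and kinase signalling activate the factors CREB, SRF and MEF2, which bind promoters and enhancers of these genes. Fos and Arc are widely used as markers of recent neuronal activity, in the hypothalamus among other regions, where they respond to feeding state, stress and time of day.

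Promoter sequence is shown for 5 members. Over mice, 8 of the genes rose and fell together, while Npas4 and Egr2 each had no correlation with another member past the threshold. For Egr2 this rested on 1 mouse, cKO 14, without which 6 of its pairs were past it. The RefSeq table (build GRCm38.p6) held promoter windows for 8 of the 10 members. The 250 bases before the annotated start are given 5′ to 3′, with every copy of the core of the cyclic AMP response element (TGACG, or CGTCA on the other strand) in capitals. Fos, Junb, Nr4a1 and Dusp1 are among the genes that moved together, Dusp1 holds the only full element, and Npas4 moved apart.
Fos, chr12:85473640-85473889, plus strand: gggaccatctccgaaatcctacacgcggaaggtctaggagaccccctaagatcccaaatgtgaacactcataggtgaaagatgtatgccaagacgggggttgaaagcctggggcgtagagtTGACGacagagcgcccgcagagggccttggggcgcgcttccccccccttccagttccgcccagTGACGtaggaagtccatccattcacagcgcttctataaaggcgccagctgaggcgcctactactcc
Junb, chr8:84978749-84978998, minus strand: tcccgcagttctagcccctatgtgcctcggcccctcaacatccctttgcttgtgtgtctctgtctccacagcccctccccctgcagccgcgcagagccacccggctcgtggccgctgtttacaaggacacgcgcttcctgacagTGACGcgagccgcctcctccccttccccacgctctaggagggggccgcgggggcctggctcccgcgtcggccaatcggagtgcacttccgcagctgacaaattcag
Nr4a1, chr15:101266596-101266845, plus strand: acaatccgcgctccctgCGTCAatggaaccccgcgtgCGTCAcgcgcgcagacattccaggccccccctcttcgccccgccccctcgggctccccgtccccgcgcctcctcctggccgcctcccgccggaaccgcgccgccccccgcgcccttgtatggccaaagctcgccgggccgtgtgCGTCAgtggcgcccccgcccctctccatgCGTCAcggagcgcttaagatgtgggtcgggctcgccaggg
Dusp1, chr17:26508473-26508722, minus strand: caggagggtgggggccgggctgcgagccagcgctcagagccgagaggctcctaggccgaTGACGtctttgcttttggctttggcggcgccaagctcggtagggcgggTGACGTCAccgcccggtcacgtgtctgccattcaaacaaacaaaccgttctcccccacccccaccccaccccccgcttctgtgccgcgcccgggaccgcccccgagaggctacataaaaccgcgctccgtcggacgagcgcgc
Npas4, chr19:4989972-4990221, minus strand: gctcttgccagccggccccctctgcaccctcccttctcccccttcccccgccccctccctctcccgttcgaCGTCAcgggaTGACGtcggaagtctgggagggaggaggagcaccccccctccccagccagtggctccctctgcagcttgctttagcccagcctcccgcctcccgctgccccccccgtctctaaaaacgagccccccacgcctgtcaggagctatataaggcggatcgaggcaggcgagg

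The core TGACG was searched on both strands and lay in the window of all 7 members that have a single window, against 17.8% of the 32851 windows of the same length in the table. Nr4a1 held 4 copies, Dusp1 3, Fos, Egr4 and Npas4 2 each, and Junb and Fosb 1 each. The full palindrome TGACGTCA, which contains the core on both strands, was found in Dusp1 and in 1.55% of all windows. Egr2 has 5 overlapping or neighbouring windows, of which 3 held the core and 4 a CArG box, the SRF binding motif found in 1.47% of all windows. The AP-1 motif TGANTCA (6.75% of windows) was found in none of the members' windows, and the EGR motif GCGNGGGCG (4.7%) in those of Fosb and Nr4a1. These are matches of letters in a short window, and whether they bear on the correlations over mice was not tested.

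Depth was 17126000 to 24010000 reads in 11 libraries and 68744100 in WT 1. Levels are in CPM, the read count scaled to library size by the authors. Smc3, the floxed gene, went against the labels, with a mean level of 81.6 CPM (SD 3.14, 7 WT) against 131 CPM (SD 10.3, 5 cKO). Directions are therefore those of the labels, and a library labelled cKO is not shown to lack Smc3. Levels of hypothalamic marker genes differed widely between libraries. Oxt, the oxytocin gene, ranged from 0.280 to 347.8 CPM. Nr5a1, a marker of the ventromedial nucleus, was listed at 0 in a single WT library. The mean log2(CPM + 1) of 15 hypothalamic neuron markers was 2.05 to 2.95 in WT 4, WT 5, cKO 12 and cKO 13 and 3.30 to 4.51 in the other 8 libraries. Of the 13 of these that were tested only Sim1 passed the limma threshold used below (0.56 higher in cKO on the log2 scale, adjusted p = 0.0206), where 6.54% of all tested genes were higher. Of the 13, 3 had a fold change below 0, with a median of 0.45. Of 9 thalamic neuron markers, 4 were lower in the libraries labelled cKO by that threshold, where 7.6% of all tested genes were. All 9 had a fold change below 0, with a median of -0.61. Their summed level was 1004 to 1645 CPM in WT and 718 to 1073 CPM in cKO, and none of the 9 was at 0. Their mean log2(CPM + 1), the thalamic score used below, was 6.23 to 7.13 in WT and 5.47 to 6.40 in cKO. The score thus went partly with the group, and a model that holds both cannot fully tell them apart.

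The members differed in level by more than an order of magnitude. Per kilobase of exon (GENCODE M21 lengths, since the annotation used by the authors is not given in the sources used here), the WT means were 15.2 CPM for Egr1, 14.9 for Fos and 13.8 for Junb. Dusp1 and Nr4a1 followed at 10.2 and 10.02 CPM per kilobase, then Arc at 6.20 and Npas4 at 5.50. Egr4, Fosb and Egr2 were lowest, at 1.86, 1.70 and 0.306 CPM per kilobase. Neighbours in this order differed by less than the larger of their WT SDs, except from Nr4a1 to Arc, from Npas4 to Egr4 and from Fosb to Egr2. Egr2 rested on 5 to 61 reads per library and its mean over all libraries, 0.838 CPM, was under the minimum of 1 CPM for testing. The other 9 members rested on at least 59 reads in every library and were tested.

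None of the 9 tested members passed the test between the groups. The test was limma on log2(CPM + 1), fitted to the 15359 genes whose mean reached 1 CPM, with a Benjamini-Hochberg adjusted p threshold of 0.05. It called 14.1% of all tested genes (6.54% higher, 7.6% lower) and 0 of the 9 members. On recovered reads edgeR called 13.7% and DESeq2 17.9% of those genes, and each called 0 of the 9 members. At an unadjusted p under 0.05 there were 2 of 9 (Fosb and Npas4), where 31.1% of all tested genes were. That count depended on single mice: it was 6 of 9 without WT 6 (29.1% of all tested genes), namely Fos, Fosb, Egr1, Npas4, Nr4a1 and Dusp1. It was 3 without cKO 14, 2 without WT 7, 0 without WT 1, cKO 9 or cKO 13, and 1 without any other mouse. With the thalamic marker score in the model it was 0 (23% of all tested genes), and 0 with the cortical and striatal score (28.3%). It was 1 with a pseudocount of 0.1, median centring or quantile normalization (30.8% to 32.4%), and 2 with edgeR or DESeq2 (30.5% to 30.7%). The group ranges overlapped for all 10 members, against 6.73% of tested genes whose ranges were separate. Of the 9, 8 had a fold change below 0, against 47.5% of all tested genes, and their median was -0.30 against 0.01 for all tested genes. As the members moved together over mice, these directions are not separate observations.

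Fos encodes a subunit of the AP-1 transcription factor. It was at 11.1 CPM in the lowest WT library, 33.0 at the median and 48.7 in the highest. The libraries labelled cKO were at 14.9 (cKO 8), 16.8 (cKO 13), 20.3 (cKO 9), 20.8 (cKO 12) and 37.2 CPM (cKO 14). Of these, 4 lay under 5 of the 7 WT libraries, within the range of WT 6 at 11.1 CPM to WT 1 at 29.1 CPM, and cKO 14 was above 5 of the WT libraries. The mean was 31.5 CPM in WT (SD 14.3, n = 7) and 22.01 CPM in cKO (SD 8.86, n = 5). On the log2 scale the difference was -0.42 (SE 0.33, limma adjusted p = 0.419), with a 95% interval from -1.13 to 0.30. Without WT 4, WT 5, cKO 12 and cKO 13, the 4 libraries of lowest hypothalamic marker level, the difference was -0.02 (limma adjusted p = 0.978). It was -0.31 with the hypothalamic score in the model (limma adjusted p = 0.493) and -0.24 with the thalamic score (limma adjusted p = 0.801). WT 4 and WT 5 were also the highest in Fos.

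Fosb encodes a further AP-1 subunit, with a splice form that accumulates after repeated activity. In WT it ranged from 3.22 to 9.25 CPM with a median of 6.49. The cKO libraries were at 3.40, 3.48, 4.38, 4.84 and 5.92 CPM, and all 5 lay under the WT median. The log2 fold change was -0.43 (SE 0.20, 95% interval -0.85 to -0.0046, limma adjusted p = 0.157), and the two-sided exact permutation p over the 792 splits of the mice into 7 and 5 was 0.0795. Without WT 6, the WT library lowest in Fosb, it was -0.55 and past the threshold (limma adjusted p = 0.0426). It was -0.28 without the 4 libraries of lowest hypothalamic level (limma adjusted p = 0.406) and -0.31 with the thalamic score in the model (limma adjusted p = 0.534). WT 1, WT 6 and WT 7 all lay below the highest cKO library, cKO 14.

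Junb, the AP-1 partner of Fos, was at 11.2 to 35.0 CPM in WT, with a median of 27.2, and at 17.4, 19.9, 21.3, 22.9 and 31.3 CPM in cKO. WT 6 and WT 7 were below every cKO library, and WT 4 and WT 5 above every one. The difference was -0.07 (SE 0.26, 95% interval -0.62 to 0.48, limma adjusted p = 0.884), an interval of 0.649-fold to 1.40-fold. It was 0.14 without the 4 libraries of lowest hypothalamic level (limma adjusted p = 0.791).

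The EGR genes encode zinc finger transcription factors that share a GC-rich recognition motif. Egr1, the most abundant member, was at 39.7 to 93.1 CPM in WT, with a median of 71.2. In cKO it was at 38.6, 46.0, 46.6 and 48.0 CPM in 4 libraries and at 80.2 CPM in cKO 14. The 4 lie near the WT pair WT 6 and WT 7, and cKO 14 lies among the higher WT libraries. The log2 fold change was -0.37 (SE 0.22, 95% interval -0.84 to 0.10, limma adjusted p = 0.269), and -0.10 without the 4 libraries of lowest hypothalamic level (limma adjusted p = 0.823). With the thalamic score in the model Egr1 was at -0.23 (limma adjusted p = 0.698). Egr4 was the member with a fold change above 0, at 0.05 (SE 0.15, 95% interval -0.27 to 0.38, limma adjusted p = 0.846), with 2.55 to 6.28 CPM in WT, a median of 3.83, and 3.32 to 4.73 CPM in cKO. Without those 4 libraries it was 0.29 (limma adjusted p = 0.143). Egr2, also a factor of myelinating and other cells, was at 0.716 to 1.30 CPM in WT, a median of 0.890. In cKO it was at 0.296, 0.462, 0.522, 0.886 and 1.08 CPM, the lowest being 5 reads in cKO 14. The library highest in Fos among cKO was therefore the lowest in Egr2. Tested among all genes with a value above 0, Egr2 had a log2 fold change of -0.27 (limma adjusted p = 0.201).

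Npas4, a neuron-specific factor induced by calcium entry, was at 15.2 to 27.9 CPM in WT with a median of 19.2. The cKO libraries were at 12.4 (cKO 13), 12.7 (cKO 9), 15.03 (cKO 14), 16.6 (cKO 12) and 19.7 CPM (cKO 8). Here 4 of 5 lay under the WT median and 3 under the lowest WT library. The log2 fold change was -0.36 (SE 0.14, 95% interval -0.66 to -0.05, limma adjusted p = 0.112, exact permutation p = 0.0556). The difference was -0.37 without the 4 libraries of lowest hypothalamic level (limma adjusted p = 0.193). It was -0.57 and past the threshold when libraries were weighted by their quality (limma with arrayWeights, adjusted p = 0.00532), a setting that called 33.4% of all tested genes.

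Arc encodes a cytoskeletal protein of active synapses that promotes removal of AMPA receptors. It was at 12.4 to 27.3 CPM in WT, a median of 17.6, and at 13.97, 16.1, 17.0, 20.3 and 20.6 CPM in cKO. The cKO libraries lay inside the WT range, and the log2 fold change was -0.06 (SE 0.18, 95% interval -0.45 to 0.32, limma adjusted p = 0.843). Nr4a1, an orphan nuclear receptor, was at 14.9 to 36.3 CPM in WT, a median of 28.5, and at 17.4, 19.5, 20.2, 20.8 and 27.2 CPM in cKO. All 5 cKO values lay under the WT median, with a log2 fold change of -0.30 (SE 0.19, 95% interval -0.70 to 0.10, limma adjusted p = 0.291). Without the 4 libraries of lowest hypothalamic level Nr4a1 was at -0.04 (limma adjusted p = 0.928), Arc at 0.09 (0.739) and Dusp1 at -0.11 (0.741). Dusp1, a phosphatase that switches off MAP kinases, had a log2 fold change of -0.18 (SE 0.16, 95% interval -0.52 to 0.16, limma adjusted p = 0.472), with 14.5 to 31.3 CPM in WT and 17.2 to 25.8 CPM in cKO. With the thalamic score in the model the sign for Dusp1 turned, to 0.06 (limma adjusted p = 0.889).

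**Figure D1:**
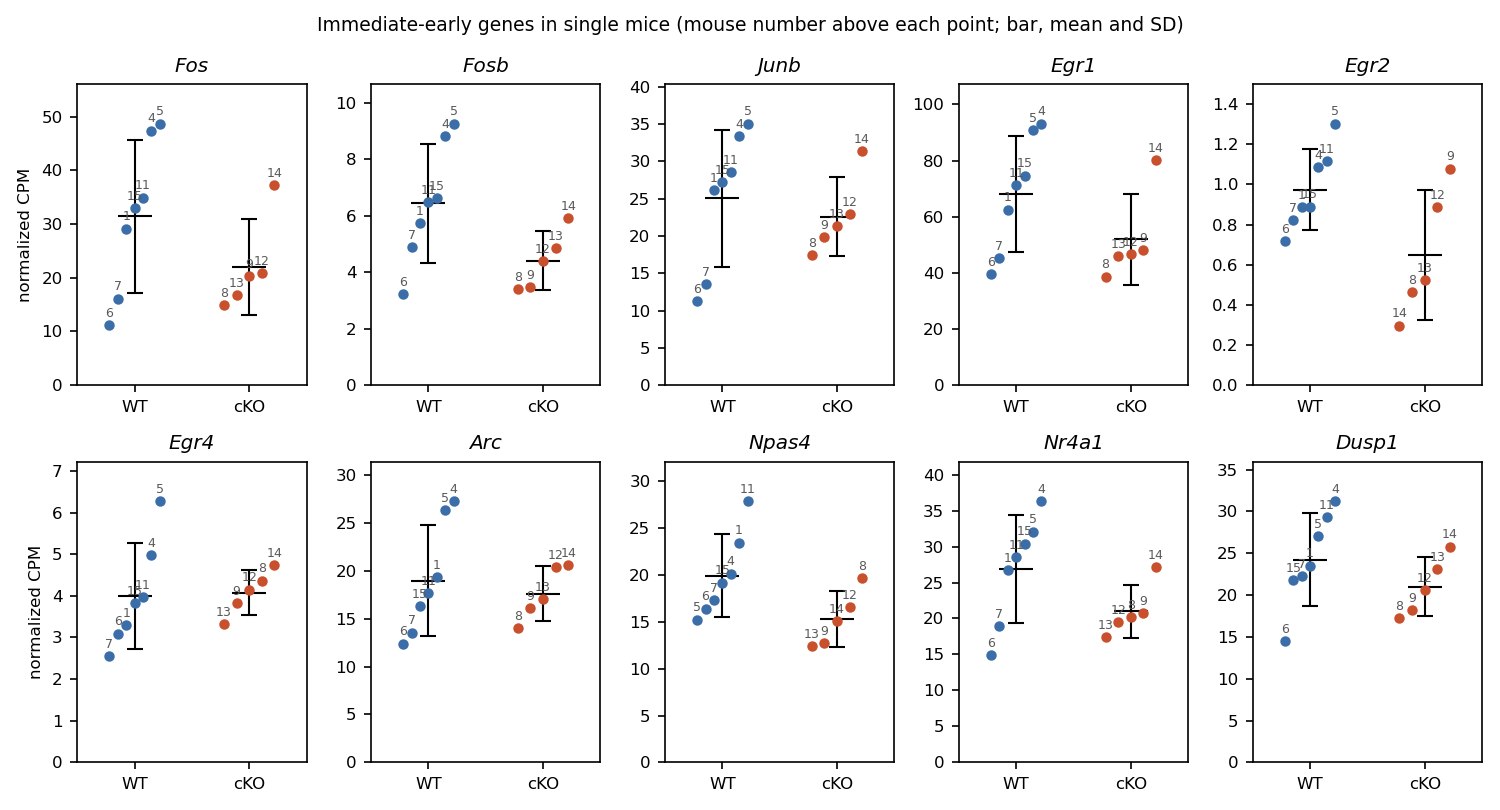
Normalized CPM (y axis, from 0, its own scale in each panel) of the 10 members in the 7 libraries labelled WT (blue) and the 5 labelled cKO (red-orange), each point 1 mouse with its number, bars the mean and SD. WT 4 and WT 5 are at or near the top and WT 6 at or near the bottom for most genes other than Npas4, and the ranges of the groups overlap in every panel.

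**Figure D2:**
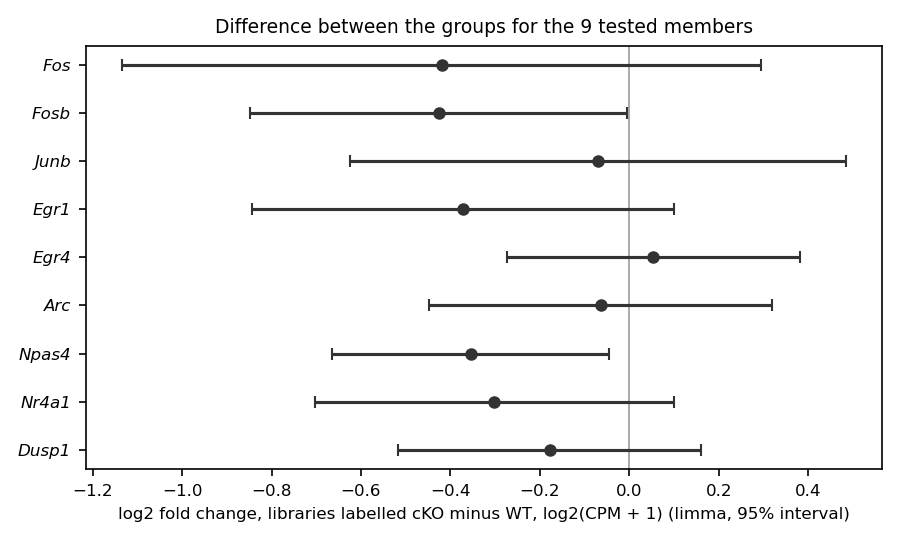
Log2 fold change of the 9 tested members (x axis, libraries labelled cKO minus WT on the log2(CPM + 1) scale; points the limma estimate, bars its 95% interval). The intervals of Fosb and Npas4 lie below 0 without adjustment and the other 7 span 0; 0 of the 9 passed the adjusted threshold.

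In the authors' deposited table, which holds their own test of the same groups, 4.94% of the 32494 genes have an FDR under 0.05 and no member does. The lowest FDR among the members in the authors' deposited table is 0.152, for Npas4, with a log2 fold change of -0.38 and a p-value of 0.0145. In the authors' deposited table Fosb has -0.55 (FDR 0.180), Egr2 -0.56 (FDR 0.262) and Fos -0.52 (FDR 0.461).

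The spread between mice of the same group was large for these genes. Over the 15359 tested genes the median within-group SD of log2(CPM + 1) was 0.12, with the 90th percentile at 0.26. Fos had an SD of 0.66, larger than that of 99.2% of tested genes. Junb followed at 0.51, Egr1 at 0.44, Fosb at 0.38, Nr4a1 at 0.37 and Arc at 0.35. The SD was 0.31 for Dusp1, 0.29 for Egr4 and 0.28 for Npas4, so all 9 lay above the 90th percentile. Wide spread was not particular to the members, whose median SD was 0.37. The median was 0.38 for thalamic, 0.46 for cortical and striatal and 1.49 for hypothalamic neuron markers. It was 0.46 for oligodendrocyte, 0.37 for ependyma and choroid plexus and 0.62 for pituitary markers. Blood (0.35), astrocyte (0.24), endothelial and mural (0.17) and microglia markers (0.12) were lower. Counting error alone gives 0.04 (Egr1) to 0.12 (Egr4) for the tested members. Variation from library preparation was not measured. Within WT, Fos differed 4.37-fold between its lowest and highest mouse, Junb 3.12-fold and Egr1 2.35-fold. For Egr2, counting error was 0.15 of an SD of 0.21.

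Apart from the group, most members rose and fell together over the mice. Deviations of log2(CPM + 1) from the group means were correlated for all 45 pairs, with permutation within groups (100000 resamples) and Benjamini-Hochberg adjustment over the pairs. An adjusted permutation p under 0.05 was found for 27 pairs, and the same number by Spearman's rho. All 27 lay among Fos, Fosb, Junb, Egr1, Egr4, Arc, Nr4a1 and Dusp1, where Egr4 with Dusp1 was the 1 pair not past the threshold (r = 0.51, adjusted permutation p = 0.239). Neither Npas4 nor Egr2 had a pair past it. The closest pair was Fos and Egr1, with r = 0.98 (rho = 0.98, permutation p = 3e-05, adjusted p = 0.000675), and without the 2 mice farthest from the median of Fos, WT 6 and WT 7, r was again 0.98. Fos and Junb had r = 0.98 (rho = 0.97, permutation p = 9e-05, adjusted p = 0.0009), 0.96 without those 2 mice, and Fos and Nr4a1 r = 0.96 (rho = 0.94, permutation p = 0.0002, adjusted p = 0.00129), 0.91 without them. Arc, an effector and no transcription factor, followed Fos with r = 0.88 (rho = 0.82, permutation p = 0.00096, adjusted p = 0.00315), 0.79 without them.

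In single mice, WT 4 was among the 3 highest of the 12 for all 10 members and WT 5 for 9, Npas4 being the exception. WT 6 was among the 3 lowest for 8 members, cKO 8 for 7 and WT 7 for 6. In cKO 14, Fos, Junb, Egr1, Egr4 and Arc were each the third highest of the 12, while Npas4 was the tenth and Egr2 the lowest. WT 4 and WT 5 both had low hypothalamic marker levels, as did cKO 12 and cKO 13, which were never among the 3 highest.

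Npas4 had correlations from -0.09 to 0.27 with the other 9 members, and none was past the threshold (adjusted permutation p from 0.584 to 0.999). With Fos it had r = 0.15 (rho = 0.15, permutation p = 0.680, adjusted p = 0.765), and -0.23 without WT 6 and WT 7. The mice highest in Npas4 were WT 11 at 27.9 CPM and WT 1 at 23.4 CPM, which were the fourth and the sixth in Fos, and WT 5, highest in Fos, was the ninth in Npas4. Counting error for Npas4 was 0.07 against its SD of 0.28. It had 0 pairs past the threshold in each of the 12 fits that left out a mouse, with a pseudocount of 0.1, with median centring and without the 4 libraries of lowest hypothalamic level. The promoter window of Npas4 held 2 copies of the core TGACG, as did that of Fos, and a link of the core to these correlations was not tested. Egr2 had correlations of 0.17 to 0.39 with the members other than Npas4 over all mice. Its lack of pairs past the threshold rested on cKO 14, where it had 5 reads. Without that mouse 6 of its pairs were past it, and its correlation with Fos was 0.70 in place of 0.29 (adjusted permutation p = 0.00525 in place of 0.439). Within WT the r of Egr2 with the members other than Npas4 was 0.79 (Nr4a1) to 0.90 (Fosb). Within cKO it was -0.59 (Fosb) to -0.08 (Arc).

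**Figure D3:**
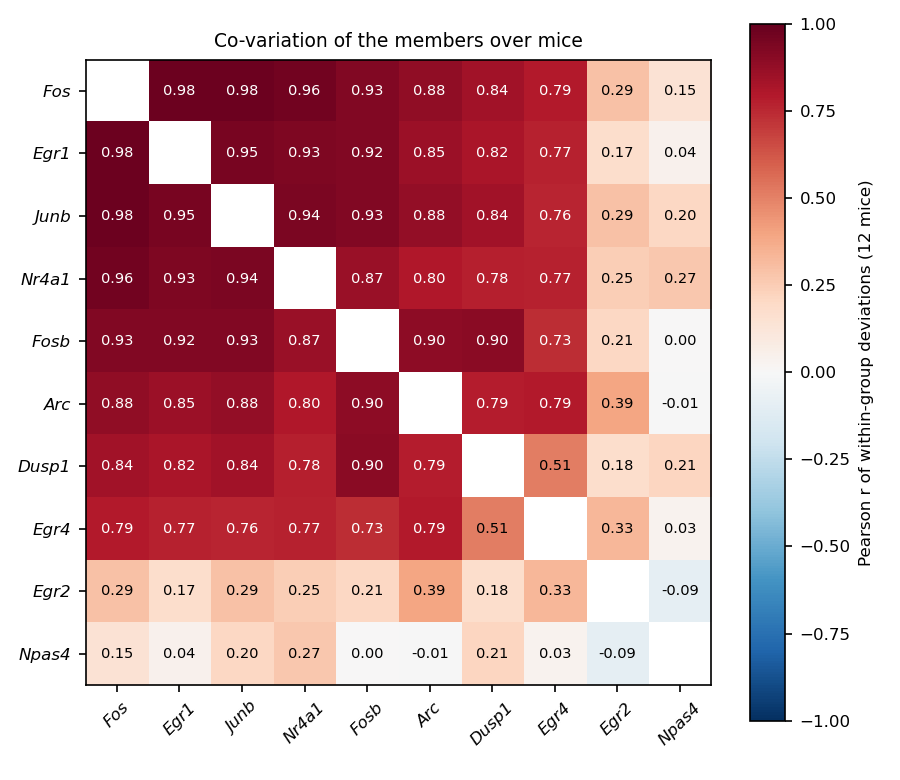
Pearson r of the deviations from the group means over the 12 mice for each pair of members, as numbers and as colour from -1 (blue) to 1 (red). The block of 8 genes from Fos to Egr4 runs from 0.51 to 0.98, and the rows of Egr2 and Npas4 stay at or below 0.39.

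**Figure D4:**
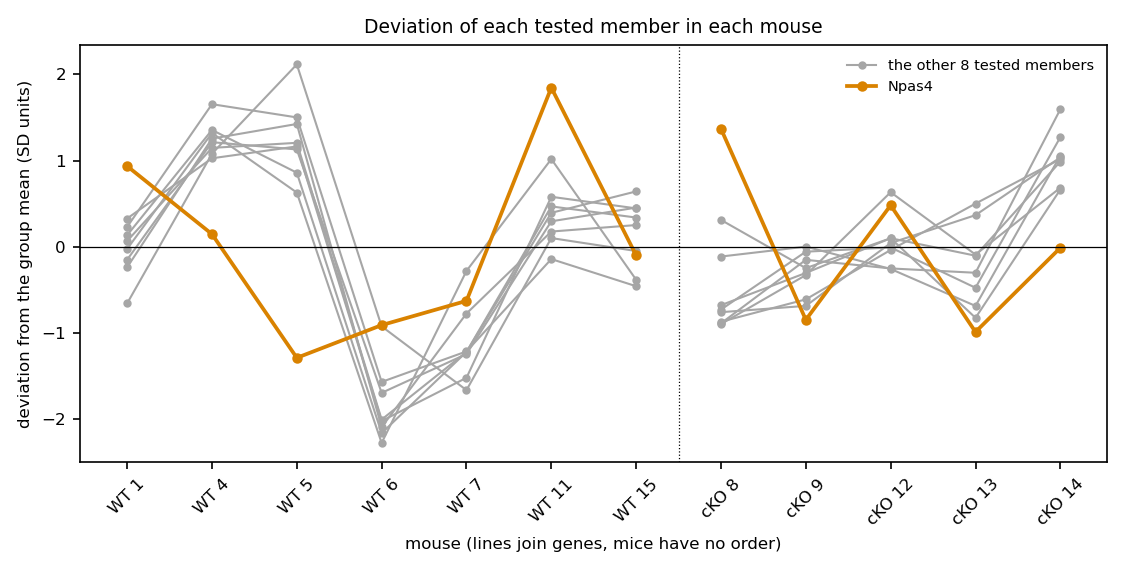
Deviation from the group mean in SD units (y axis) of the 9 tested members in each of the 12 mice (x axis), with Npas4 in orange and the other 8 in grey; the dotted line separates the groups and mice have no order. The grey lines are high in WT 4, WT 5 and cKO 14 and low in WT 6, while Npas4 peaks in WT 11 and cKO 8.

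Whether Fos moved with the makeup of the sample was asked with 12 relations, those of its deviations with scores of 10 marker lists, of heat shock genes and with log2 depth. None had an adjusted permutation p under 0.05. The largest was with the score of 9 heat shock genes, at r = 0.66 (rho = 0.54, permutation p = 0.0421, adjusted p = 0.505), and 0.53 without the 2 mice farthest from its median. With hypothalamic markers r was -0.45 (rho = -0.37, permutation p = 0.158, adjusted p = 0.633), or -0.13 without 2 mice, and with oligodendrocyte markers 0.47 (rho = 0.36, permutation p = 0.146, adjusted p = 0.633), or 0.18 without 2 mice. With thalamic markers r was 0.15 and with cortical and striatal markers -0.02 (permutation p of 0.645 and 0.949, adjusted p of 0.774 and 0.949). In bulk tissue fewer cells of a type and less RNA per cell cannot be told apart.

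Of the tested genes that are no members, those most like the members over mice were LOC118567915 (r = 0.96 with the mean standardised deviation of the 9 tested members over 12 libraries), Stt3a (0.92), Syncrip (0.91), Inhbb (0.90) and Zfp846 (0.89). Their range, as the highest over the lowest library, was narrower than that of any tested member for 4 of the 5: Stt3a, a subunit of oligosaccharyltransferase, stayed between 56.2 and 64.5 CPM, and Syncrip, an RNA-binding protein, between 62.7 and 86.1 CPM. LOC118567915 ranged from 5.67 to 18.0 CPM. Over the 15350 tested genes that are no members, r ran from -0.98 to 0.96, and it was above 0.5 for 9.94% of them. The 5 were picked as the highest of these, so their r is a description without a test.

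The other genes of the response were compared through lists, against a background of 14.1% of all tested genes called. Of 21 tested rapid-response transcription factors outside the members, 6 were past the limma threshold, 4 lower and 2 higher in the libraries labelled cKO, with a list median of -0.17. Fosl2, an AP-1 subunit, fell most on the log2(CPM + 1) scale. It went from a WT mean of 14.04 CPM (SD 1.24, n = 7) to 8.69 CPM in cKO (SD 2.18, n = 5). Its values were 12.1 to 15.9 CPM in WT and 6.505 to 11.2 CPM in cKO, without overlap. The log2 difference was -0.66 (SE 0.12, limma adjusted p = 0.00614). Klf4 at -0.41, Bhlhe40, a repressor of the clock, at -0.36 and the stress factor Atf3 at -0.35 also fell. Klf10 rose by 0.45 and Crem, a CREB family gene named after its values were seen because it was the 1 remaining call, by 0.22. Atf3 had a mean of 1.21 CPM in WT and 0.725 CPM in cKO, low levels at which the log2(CPM + 1) scale understates changes. Atf3, at 0.560 to 1.53 CPM, was not past the threshold without WT 1, cKO 9 or cKO 12 (limma adjusted p up to 0.0559). Klf4 was not without cKO 8 or cKO 14 (up to 0.0597), nor Bhlhe40 without cKO 8, cKO 12 or cKO 13 (up to 0.0575). Adding the thalamic marker score, which went partly with the group, to the limma model called 3.83% of all tested genes and 0 of the 21. At an unadjusted p under 0.05 there were 5 of the 21 in that model, and 23% of all tested genes. In that model Fosl2 was at -0.45 (limma adjusted p = 0.101), Klf10 at 0.34 and Bhlhe40 at -0.16, while Atf3 at -0.41, Klf4 at -0.38 and Crem at 0.22 were about as far from 0 as without it.

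Among 19 tested rapid-response effectors and feedback genes, 1 was past the threshold. Plk2, a kinase that acts on dendritic spines, fell from a WT mean of 51.5 CPM (SD 5.44, n = 7) to 37.6 CPM in cKO (SD 5.37, n = 5). The ranges were separate and the log2 difference was -0.45 (SE 0.09, limma adjusted p = 0.0101). With the thalamic score in the model it was at -0.56 (limma adjusted p = 0.0318). The list median was -0.19 and 16 of the 19 had a fold change below 0, against 47.5% of all tested genes. Of the 19, 6 had an r above 0.5 with the mean of the members over mice, against 9.94% of all other tested genes. The r was below 0 for 4 of them, with a list median of 0.34. Whether the directions of the 19 are separate observations was not tested. Of 8 tested late-response genes, Nptx2, a secreted protein that clusters AMPA receptors, was the 1 gene past it, at -0.54 on the log2 scale (SE 0.15, limma adjusted p = 0.0344). It lost the call in 8 of 12 leave-one-out fits, those without WT 1, WT 6, WT 7, WT 11, cKO 8, cKO 9, cKO 12 or cKO 13 (limma adjusted p up to 0.0709), and in the model with the thalamic score (-0.15, limma adjusted p = 0.593).

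Upstream of the members, 6 of 29 tested signalling and transcription factor genes were past the threshold, 5 lower and 1 higher, with a list median of -0.07. The NMDA receptor subunit Grin2a fell by 0.41 on the log2 scale (SE 0.10, limma adjusted p = 0.0234) and the calcium channel gene Cacna1d by 0.38 (SE 0.09, limma adjusted p = 0.0139). Crtc2, a CREB coactivator, fell by 0.29 (SE 0.06, limma adjusted p = 0.0133), with 23.6 to 30.0 CPM in WT and 19.1 to 23.2 CPM in cKO. The kinase gene Rps6ka5 fell by 0.25 and Grin1, the obligatory NMDA receptor subunit, by 0.15. Creb1, which encodes CREB and was named after its values were seen as the 1 gene higher, rose by 0.13 (SE 0.04, limma adjusted p = 0.0364). It kept the call only without WT 7, WT 15 or cKO 12, and in the other 9 leave-one-out fits the limma adjusted p was up to 0.0857. Grin2a was not past the threshold without cKO 9 (limma adjusted p = 0.0504) and Grin1 not without cKO 8 (0.0541). Rps6ka5 was not past it without WT 1, WT 11, cKO 8, cKO 9, cKO 12 or cKO 13 (up to 0.0746). In the model with the thalamic score, where 3.83% of all tested genes were called, limma called 0 of the 29, and 5 had an unadjusted p under 0.05, where 23% of all tested genes did. There Cacna1d was at -0.41, Crtc2 at -0.28, Creb1 at 0.16 and Grin1 at -0.13, close to their values without the score, and Grin2a was at -0.27 and Rps6ka5 at -0.13.

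Heat shock genes, which also respond within minutes to temperature and handling, were listed as a sign of the state of the tissue. Of 9 tested, Hsp90aa1 rose by 0.25 (SE 0.05, limma adjusted p = 0.0107) and Hspa8 by 0.18 (SE 0.05, limma adjusted p = 0.0322), and none was lower past the threshold. The list median was 0.11, and 2 of the 9 had a fold change below 0, against 47.5% of all tested genes. The 7 not past the threshold were Hspe1 (0.15), Dnajb1 (0.15), Hspd1 (0.11), Hspa1a (0.03), Hspb1 (0.01), Hsph1 (-0.01) and Hspa1b (-0.16). Hspa8 was not past the threshold without WT 1, WT 6, WT 7, WT 11, cKO 9, cKO 13 or cKO 14 (limma adjusted p up to 0.0696). In the model with the thalamic score (3.83% of all tested genes called) limma called 0 of the 9, with 3 at an unadjusted p under 0.05 (23% of all tested genes), and the estimates were 0.27 for Hsp90aa1 and 0.20 for Hspa8. Hspa1a and Hspa1b are near-identical copies, so reads may be split between them.

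**Figure D5:**
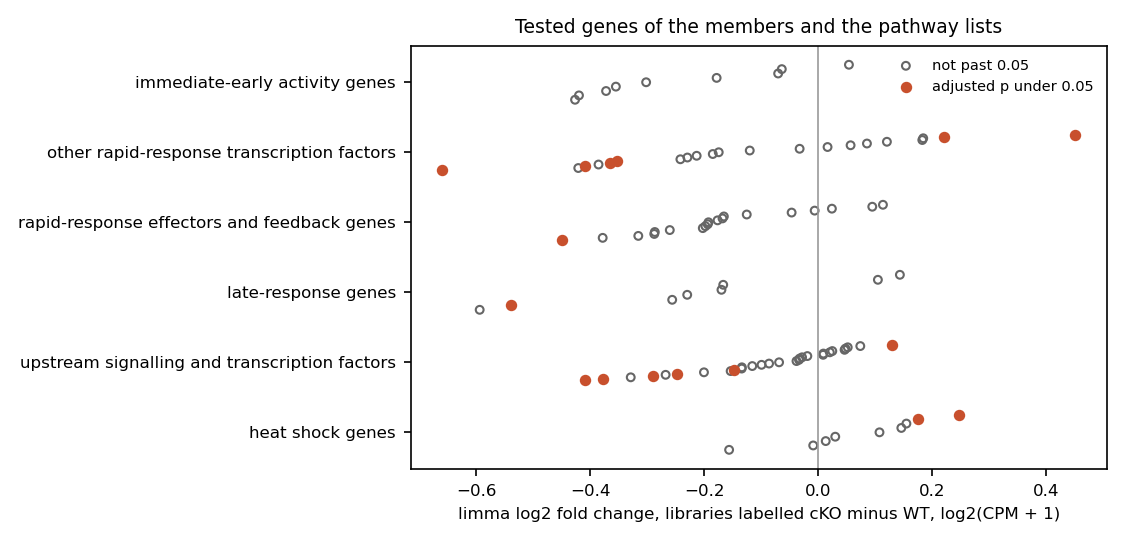
Limma log2 fold change (x axis, libraries labelled cKO minus WT on the log2(CPM + 1) scale) of each tested gene of the members and of 5 further lists, filled where the adjusted p over all tested genes is under 0.05 and open otherwise. No member is filled, and the filled genes of the lists lie between -0.66 and 0.45.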

How the data were processed

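RNA was measured in 12 hypothalamus libraries, 7 labelled WT and 5 labelled cKO by title. Reads were aligned with STAR 2.7.9a and counted with featureCounts, per the submitters' processing notes; build, annotation and strand setting are not given in the sources used here. The authors deposited normalized CPM for 32494 genes, and their own test with log2 fold changes, p-values and FDR. In each CPM column 100% of values came out as whole reads (within 0.01 read), so reads were recovered; on these edgeR's quasi-likelihood test called 2098 genes. The scaling factors implied by the columns matched TMM factors computed with edgeR. Every column was matched to a sample.

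limma 3.58.1 (R 4.3.3) with a trend was fitted to log2(CPM + 1) of the 15359 genes whose mean reached 1 CPM, without covariates; this scale understates changes of low genes. edgeR 4.0.16 and DESeq2 1.42.0 were alternatives. A level of 3 reads was 0.0436 to 0.178 CPM, for counting error only. Replicate pairs differed by a chi-square of 3.04 to 26.3 per degree of freedom, so none was a repeat count of the same library. That each library is a separate mouse rests on the labels. P-values set the group difference against the spread between these samples. In 10 simulated tables with 200 genes changed by 1 log2 unit and a dispersion of 0.02, limma recovered 99.8% of those tested, with 5.37% false calls. Most members spread more widely between mice, and recovery at their spread was not simulated.

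The members and lists were chosen with earlier results of these data known. Named were all 10 members, the called genes of each list (at most 5 by size of change), and the 5 genes most like the members over mice. Hypothalamic score settings and within-mouse ratios were added after seeing the data.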

Additional observations from a re-analysis of the deposited data

Results flagged for a closer look

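Of 22 groups of values examined (each member in each group, and depth), 3 held a library far from the others, where chance gives 1.1. Fos was at 37.2 CPM in cKO 14, against 20.8 CPM in the next cKO library. Egr1 was at 80.2 CPM in cKO 14, against 48.0 CPM in the next. The 2 genes moved together over mice, so these are not separate events; without cKO 14 the log2 fold change of Egr1 was -0.54 in place of -0.37, and not past the threshold (limma adjusted p = 0.114). The depth of WT 1 was 68744100 reads (68.7 M), against 24010000 in the next WT library.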

How the results depend on the processing

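No paired analysis was possible because the groups share no mouse numbers. Among 9 tested members 0 passed the limma threshold as reported, 1 with arrayWeights (Npas4, -0.57), and 0 to 1 in leave-one-out fits (Fosb, -0.55, without WT 6). The other settings called 0. Leaving out a mouse moved the log2 fold change over -0.63 to -0.29 (Fos), -0.55 to -0.34 (Fosb), -0.24 to 0.02 (Junb), -0.54 to -0.28 (Egr1), -0.02 to 0.15 (Egr4), -0.15 to 0.03 (Arc), -0.45 to -0.27 (Npas4), -0.43 to -0.22 (Nr4a1) and -0.29 to -0.11 (Dusp1). A fold change below 0 was found for 8 members under each scaling, 7 with the thalamic score and 6 with the hypothalamic score or without the 4 libraries lowest in it, and 6 to 9 in leave-one-out fits. Fos, Fosb, Egr1, Npas4 and Nr4a1 stayed below 0 in every fit; Junb, Arc, Egr4 and Dusp1 changed sign in at least 1 and were never past the threshold. Calls over all tested genes were 2172 as reported, 588 with the thalamic score, 1161 without WT 1, 5126 with arrayWeights and 2431 with median centring (56.6% higher, against 46.2%).

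Called list genes moved by over 1.5 times as follows, each setting with its share of all tested genes called. With arrayWeights (33.4%) there were 10 transcription factors, 6 effectors, 4 late-response and 5 heat shock genes. With the thalamic score (3.83%) there were 0 transcription factors, 0 upstream and 0 heat shock genes. DESeq2 (17.9%) called 2 effectors, quantile normalization (13.3%) 1 heat shock gene, the fit of all genes above 0 (4.86%) called 0 late-response and 1 heat shock gene, and the cortical and striatal score (9.46%) left 0 late-response genes. Without the 4 libraries (10.3%) there were 2 late-response and 4 heat shock genes. Leaving out a mouse (7.56% to 15% called) gave 4 to 8 transcription factors, 1 to 2 effectors, 0 to 1 late-response, 3 to 7 upstream and 1 to 3 heat shock genes. What causes these shifts was not tested.

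Pairs of members past the threshold numbered 20 (without the 4 libraries) to 27 (other settings) and 23 (without WT 7) to 31 (without cKO 14) in leave-one-out runs. In the latter r was 0.96 to 0.99 for Fos and Junb and -0.07 to 0.37 for Fos and Npas4, and without the 4 libraries it was 0.98 and 0.41. Of the 9 members 7 (pseudocount 0.1) and 8 to 9 (a mouse left out) lay above the 90th percentile of SD. The minimum of 5 CPM left no value for Egr4. Depth limits Egr2, at 5 to 61 reads.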

Other observations

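Among the listed genes of the response, those whose deviations over mice were most like the mean of the members were Btg2, an antiproliferative gene (r = 0.89 over 12 libraries), the kinase gene Sik1 (0.80), the chaperone Hsph1 (0.78), Ier2 (0.77) and Tiparp (0.76). The opposite sign was largest for the CREB coactivator Crtc2 (-0.75) and for Jund (-0.63), an AP-1 subunit known for steady expression. An r above 0.5 was found for 5 of 21 transcription factors, 6 of 19 effectors, 0 of 8 late-response genes, 5 of 29 upstream genes and 3 of 9 heat shock genes, against 9.94% of all other tested genes. These values are descriptions without a test, over the same libraries.

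Within-mouse differences of log2(CPM + 1) between 2 tested members, from which library scaling largely drops out, were compared between groups for 36 pairs after the data had been seen. None was past 0.05 after Benjamini-Hochberg adjustment of two-sided exact permutation p-values (lowest adjusted p = 0.127), and 9 had an unadjusted exact p under 0.05. The log2 ratio of Fosb to Arc was lower by -0.36 in the libraries labelled cKO (exact p = 0.00631, adjusted p = 0.127), as was that of Fosb to Junb (-0.36, exact p = 0.0126, adjusted p = 0.127). The ratio of Junb to Egr1 was higher by 0.30 (exact p = 0.0152, adjusted p = 0.127).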
